A study of Mus musculus with 4 samples.

Results

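Genes of the Hippo pathway were followed in RNA taken from polysomes, the fraction of messenger RNA that carries several ribosomes. The genes were the kinases Stk3, Lats1 and Lats2, the coactivators Yap1 and Wwtr1, the DNA-binding factors Tead1 and Tead2, and the target genes Ccn1, Ccn2 and Ankrd1, which make 10 of the 18200 genes in the FPKM table. They were taken by symbol from a list of pathway genes, and all 10 passed the filter of a mean of at least 1 FPKM (fragments scaled to gene length and library size). The genes were chosen by their place in the pathway and with the FPKM differences between these same libraries already known, so their values are given as a description, with no test. The study sequenced 2 libraries labelled IFIT1 knockdown, made with an shRNA against Ifit1, and 2 libraries labelled Scrambled. All 4 came from mouse cells that the labels call ADSCs, with genotype WT (mesenchymal stem cells, by the title of the series). In each group replicate 1 was in batch 1 and replicate 2 in batch 2, and whether they were separate cultures is not stated. The p-values below therefore rest on how far these 4 libraries scatter, and that scatter may be technical.

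The Hippo pathway is a kinase cascade that restrains growth. MST kinases, of which Stk3 encodes MST2, act with the scaffold protein Sav1 on the LATS kinases, and LATS with its MOB1 partner phosphorylates YAP (Yap1) and TAZ (Wwtr1). Phosphorylated YAP and TAZ are held in the cytoplasm or degraded, while the unphosphorylated proteins enter the nucleus and bind TEAD factors, which recruit them to genes such as Ccn1, Ccn2 and Ankrd1. In mesenchymal cells YAP and TAZ are known for responding to cell shape, matrix stiffness and actin tension, and TAZ for its part in the choice between bone and fat fates. Control of the proteins by phosphorylation and location is not seen in messenger RNA.

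The gene named as the target of the knockdown went against the labels. Ifit1 had 13.9 and 14.8 FPKM in the libraries labelled knockdown, against 1.93 and 1.91 FPKM in those labelled scrambled (log2 change 2.39, SE 0.04, limma adjusted p = 1.6e-04), so each direction here is that of libraries by their label. The recovered fragments summed to 29072057 and 26518968 in the libraries labelled knockdown and to 24493694 and 29884908 in those labelled scrambled. Of 8 markers of mesenchymal stromal cells all had a value, but Nt5e stayed under 0.1 FPKM in every library. Pdgfrb was also below the filter, as was Pdgfra, at 0.121 and 0.117 FPKM in the libraries labelled knockdown and 0.003 and 0.008 FPKM in those labelled scrambled. The summed level of the 8 was 92.1 to 93.2 FPKM in the libraries labelled knockdown and 38.2 to 38.8 FPKM in those labelled scrambled. Its largest terms by group mean were Ly6a (43.7 against 22.4 FPKM) and, in the libraries labelled knockdown, Thy1 (30.6 against 3.70 FPKM). Epithelial markers, with Epcam and Cdh1 under 0.1 FPKM, summed to 5.32 to 5.60 FPKM in the libraries labelled knockdown and 0.755 to 0.776 FPKM in those labelled scrambled. Nearly all of that sum came from the keratins Krt8 (2.55 against 0.279 FPKM by group mean) and Krt18 (2.89 against 0.470 FPKM). Adipocyte markers, with Plin1 under 0.1 FPKM, summed to 2.43 to 2.48 FPKM in the libraries labelled knockdown and 5.65 to 5.67 FPKM in those labelled scrambled. The matched endothelial markers, Pecam1 and Tek, were under 0.1 FPKM, and of the leukocyte markers only Cd14 was matched, at 5.85 to 5.99 FPKM in the libraries labelled knockdown and 5.14 to 5.16 FPKM in those labelled scrambled. The part of these differences between the groups in the results below was not tested. In bulk RNA, fewer cells of a type and less RNA per cell cannot be told apart, nor, without total RNA, can the amount of a messenger RNA and its loading with ribosomes.

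Among the kinases, Lats1 and Lats2 were lower in the libraries labelled knockdown, while Stk3 was not set apart by group. Lats1, which phosphorylates YAP and TAZ, had 1.59 and 1.61 FPKM in the libraries labelled knockdown, against 2.45 and 2.42 FPKM in those labelled scrambled. Lats2, its close relative and itself a known target of YAP, had 3.65 and 3.72 FPKM in the libraries labelled knockdown, against 6.06 and 6.01 FPKM in those labelled scrambled. Both genes kept the groups apart, 1.52-fold lower for Lats1 and 1.64-fold lower for Lats2 in the libraries labelled knockdown, and the ratio of Lats2 to Lats1 was 2.30 and 2.31 there, against 2.47 and 2.48 in those labelled scrambled. On log2(FPKM + 1), which understates the change of low genes, the differences were -0.40 for Lats1 (SE 0.01, counting SE 0.04) and -0.59 for Lats2 (SE 0.02, counting SE 0.04), where the counting SE is what whole fragment numbers alone would give. The direction of Lats1 did not hold once the trend of change with transcript length was taken out (0.04), and Lats2 was then at -0.24. Stk3 had 2.39 and 2.95 FPKM in the libraries labelled knockdown, against 2.97 and 2.45 FPKM in those labelled scrambled. Its high libraries were knockdown 2 and scrambled 1 and its low libraries knockdown 1 and scrambled 2, so the groups overlapped, and the means of 2.67 ± 0.393 FPKM in the libraries labelled knockdown and 2.71 ± 0.371 FPKM in those labelled scrambled (SD, n = 2 each) differed by less than the spread of either group.

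The other core genes were tested with limma (Benjamini-Hochberg adjustment over the 8750 tested genes), and 68.7% of all tested genes passed, 27.4% higher and 41.2% lower. Of the 4 core genes besides the kinases above, 2 fell, 0 rose and 2 did not pass. Stk4, which encodes MST1 and is the closest relative of Stk3, fell to 3.45 and 3.43 FPKM in the libraries labelled knockdown, against 6.17 and 5.93 FPKM in those labelled scrambled (log2 change -0.67, SE 0.02, adjusted p = 2.3e-04). Mob1b, a LATS cofactor, fell to 2.43 and 2.44 FPKM in the libraries labelled knockdown, against 3.91 and 3.79 FPKM in those labelled scrambled (log2 change -0.50, SE 0.02, adjusted p = 2.7e-04), but did not pass without the length trend (log2 change -0.03, adjusted p = 0.35). Mob1a had 29.5 and 33.2 FPKM in the libraries labelled knockdown, against 40.1 and 35.9 FPKM in those labelled scrambled, and did not pass (log2 change -0.27, SE 0.09, adjusted p = 0.087). With FPKM scaled to the same sum it did (adjusted p = 0.020). Sav1, the scaffold of the MST kinases, had 11.7 and 7.81 FPKM in the libraries labelled knockdown, against 7.88 and 12.0 FPKM in those labelled scrambled (adjusted p = 0.99), the same split by library as Stk3 with high and low turned round.

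**Figure D1:**
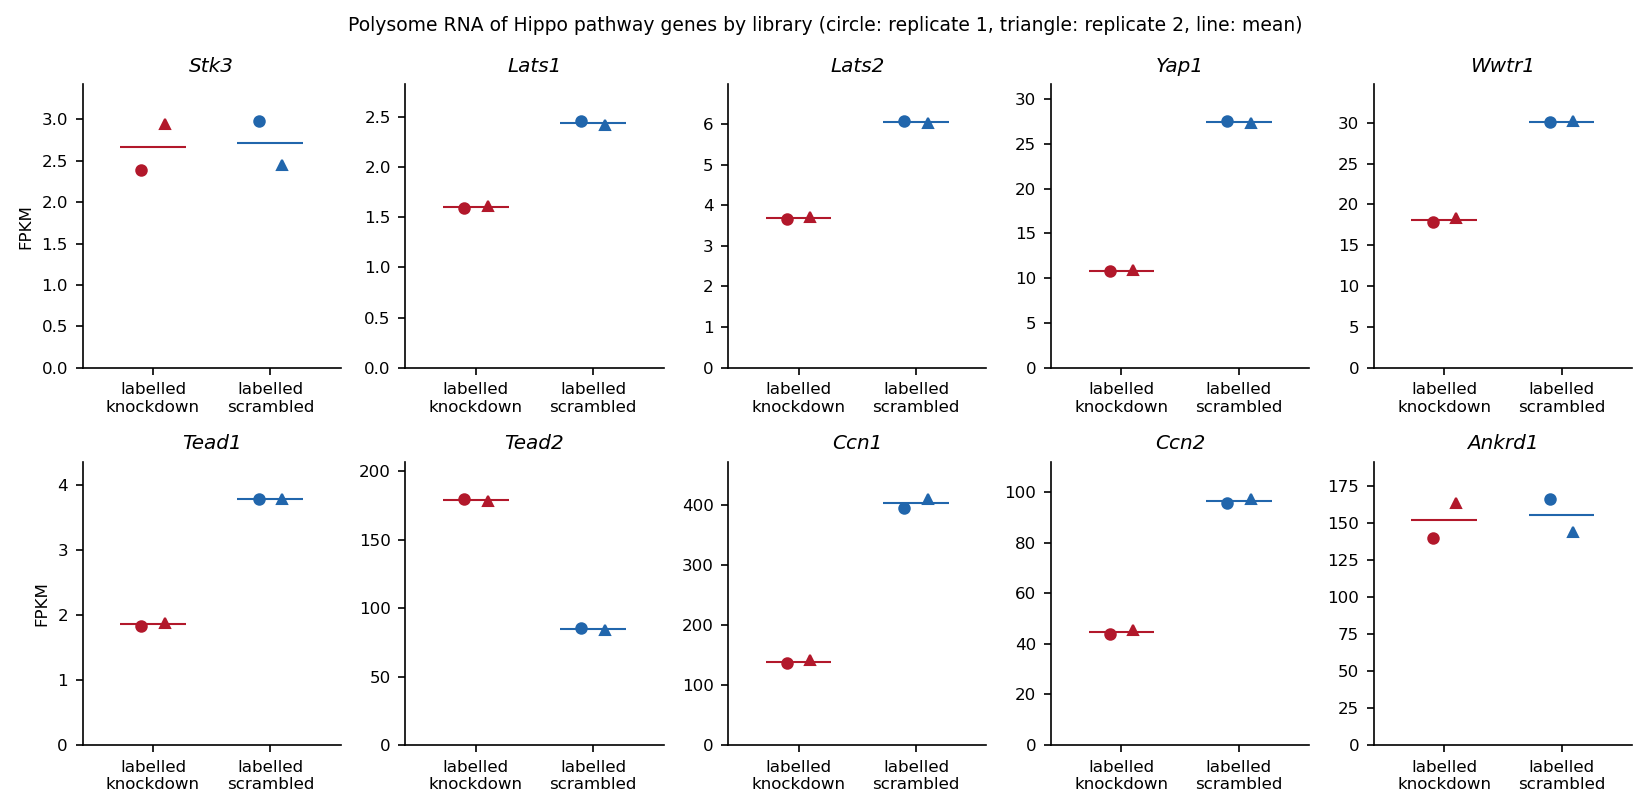
FPKM of each of the 10 genes in every library, with the libraries labelled knockdown (red) left of those labelled scrambled (blue), circles for replicate 1, triangles for replicate 2, a line at the mean and axes from 0. The points of a group lie close together for 8 genes, with Tead2 the gene that is higher in the libraries labelled knockdown, while those of Stk3 and Ankrd1 spread over the same range in both groups.

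Both coactivators were lower in the libraries labelled knockdown, Yap1 more than Wwtr1. Yap1 had 10.75 and 10.95 FPKM in the libraries labelled knockdown, against 27.5 and 27.4 FPKM in those labelled scrambled, from 1901 and 1777 fragments against 3967 and 4794. Wwtr1, which encodes TAZ, had 17.9 and 18.4 FPKM in the libraries labelled knockdown, against 30.1 and 30.2 FPKM in those labelled scrambled. Neither gene had a library of one group within the range of the other. Yap1 was thus 2.53-fold lower (log2 difference -1.26, SE 0.02, counting SE 0.03) and Wwtr1 1.66-fold lower (log2 difference -0.70, SE 0.02, counting SE 0.02). Because FPKM are per length, the 2 levels can be set side by side: the ratio of Yap1 to Wwtr1 was 0.601 and 0.596 in the libraries labelled knockdown, against 0.913 and 0.907 in those labelled scrambled. Together they came to 28.7 and 29.3 FPKM in the libraries labelled knockdown and to 57.6 and 57.5 FPKM in those labelled scrambled.

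The TEAD factors did not move as a group. Tead2 was the only one of the 10 genes to be higher in both libraries labelled knockdown, with 180.0 and 179 FPKM, against 85.6 and 84.1 FPKM in those labelled scrambled. That is 2.11-fold higher (log2 difference 1.07, SE 0.02, counting SE 0.01), from 16750 and 15247 fragments in the libraries labelled knockdown against 6503 and 7759 in those labelled scrambled. Tead1, another member of the family, had 1.83 and 1.88 FPKM in the libraries labelled knockdown, against 3.78 and 3.79 FPKM in those labelled scrambled, 2.04-fold lower (log2 difference -0.74, SE 0.02, counting SE 0.03). The difference for Tead2 was therefore opposite in sign to that for Tead1, and its level far above the others. Tead3 fell to 13.3 and 13.6 FPKM in the libraries labelled knockdown, against 16.3 and 16.2 FPKM in those labelled scrambled (log2 change -0.26, SE 0.02, adjusted p = 0.0015), but not after centring each library on its median (log2 change -0.08, adjusted p = 0.17) or with the length trend taken out (adjusted p = 0.056). Tead4 had 3.49 and 4.75 FPKM in the libraries labelled knockdown, against 4.82 and 3.55 FPKM in those labelled scrambled (adjusted p = 0.99). Summed over Tead1, Tead2, Tead3 and Tead4, the level was 199 FPKM in both libraries labelled knockdown, against 111 and 108 FPKM in those labelled scrambled, and Tead2 made up 90.6% and 89.8% of it in the libraries labelled knockdown, against 77.4% and 78.1% in those labelled scrambled.

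**Figure D2:**
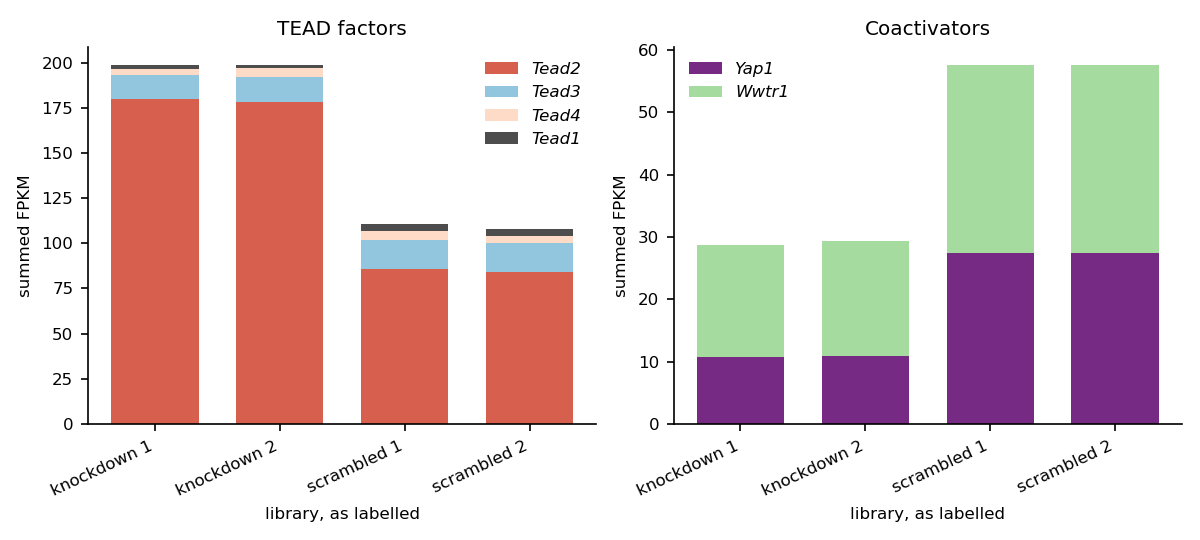
Stacked FPKM of the 4 TEAD genes (left) and of Yap1 and Wwtr1 (right) in each library, with the 2 libraries labelled knockdown left of the 2 labelled scrambled. The TEAD sum is 199 FPKM in the libraries labelled knockdown and 108 to 111 FPKM in those labelled scrambled, with Tead2 the TEAD gene that is higher and Tead1 and Tead3 lower as deposited, while the coactivator sum is 28.7 to 29.3 FPKM in the libraries labelled knockdown and 57.5 to 57.6 FPKM in those labelled scrambled.

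VGLL proteins compete with YAP and TAZ for TEAD factors. Vgll4, known as a repressor of YAP, had 10.4 and 10.7 FPKM in the libraries labelled knockdown, against 10.4 and 10.2 FPKM in those labelled scrambled (log2 change 0.03, SE 0.03, adjusted p = 0.42), and passed upward after median-centring (log2 change 0.20, adjusted p = 0.022). Vgll3 had 7.06 and 6.58 FPKM in the libraries labelled knockdown, against 8.30 and 9.12 FPKM in those labelled scrambled (log2 change -0.31, SE 0.06, adjusted p = 0.022). A block for batch ended its call (adjusted p = 0.078), as did median-centring (adjusted p = 0.095) and leaving out knockdown 1 (adjusted p = 0.077), knockdown 2 (adjusted p = 0.12) or scrambled 2 (adjusted p = 0.065), and with the length trend taken out its change was 0.13. No value was matched for Vgll1 and Vgll2.

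The 3 target genes did not share a direction: Ccn1 and Ccn2 were lower in the libraries labelled knockdown, and Ankrd1 was not. Ccn1, formerly Cyr61, encodes a secreted matricellular protein and is an immediate target of YAP. It had 137 and 141 FPKM in the libraries labelled knockdown, against 394 and 410.4 FPKM in those labelled scrambled, from 10923 and 10371 fragments against 25754 and 32546. That is 2.90-fold lower (log2 difference -1.53, SE 0.03, counting SE 0.01). On log2(FPKM + 1), 16 of the 8750 tested genes had a difference further below 0. This is no rank by fold, since that scale understates the change of low genes. Wwc1, for example, was 3.10-fold lower at a log2 change of -1.41. Because Ccn1 was chosen with the contrast in view, its rank is a description only. Ccn2, formerly Ctgf, the connective tissue growth factor, had 44.0 and 45.4 FPKM in the libraries labelled knockdown, against 95.5 and 97.3 FPKM in those labelled scrambled, 2.16-fold lower (log2 difference -1.09, SE 0.03, counting SE 0.03). In both genes the groups lay far apart against the gaps within them. The ratio of Ccn1 to Ccn2 was 3.10 and 3.11 in the libraries labelled knockdown, against 4.13 and 4.22 in those labelled scrambled. Ankrd1, a cardiac ankyrin repeat protein of the sarcomere and nucleus, had 139.6 and 163 FPKM in the libraries labelled knockdown, against 166 and 144 FPKM in those labelled scrambled. Its groups overlapped, and the means of 152 ± 16.9 FPKM in the libraries labelled knockdown and 155 ± 15.9 FPKM in those labelled scrambled (SD, n = 2 each) were closer than the libraries of either group. Ankrd1 was 1.02 and 1.16 times the level of Ccn1 in the libraries labelled knockdown and 0.421 and 0.350 times in those labelled scrambled.

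The promoters of Ccn1 and Ankrd1 are shown because these targets differed in behaviour, and that of Yap1 as the lower of the coactivators. The sequences are the 250 bases before the annotated start, from RefSeq on GRCm38.p6, 5′ to 3′ on the minus strand of chr3:145649986-145650235 for Ccn1, chr19:36119845-36120094 for Ankrd1 and chr9:8004597-8004846 for Yap1. Capitals mark GGAATG, the core letters that TEAD factors bind, or its reverse complement CATTCC.
Ccn1: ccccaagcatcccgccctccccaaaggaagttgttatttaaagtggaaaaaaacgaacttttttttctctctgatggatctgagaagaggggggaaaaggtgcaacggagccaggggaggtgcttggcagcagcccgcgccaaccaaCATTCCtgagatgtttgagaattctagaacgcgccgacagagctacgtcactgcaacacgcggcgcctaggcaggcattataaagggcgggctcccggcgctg
Ankrd1: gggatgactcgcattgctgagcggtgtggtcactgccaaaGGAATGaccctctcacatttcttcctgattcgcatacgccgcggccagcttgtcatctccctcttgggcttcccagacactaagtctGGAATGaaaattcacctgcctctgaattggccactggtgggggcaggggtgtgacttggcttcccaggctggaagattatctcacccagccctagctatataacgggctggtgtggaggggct
Yap1: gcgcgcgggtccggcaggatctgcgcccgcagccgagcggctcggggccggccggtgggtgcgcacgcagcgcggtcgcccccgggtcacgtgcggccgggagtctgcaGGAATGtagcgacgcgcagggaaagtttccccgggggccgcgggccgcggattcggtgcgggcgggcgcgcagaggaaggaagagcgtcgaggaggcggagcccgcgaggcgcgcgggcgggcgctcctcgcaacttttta
Ankrd1 held the motif at -210 and -123, Ccn1 in reverse at -103, and Yap1 at -141, counted to the motif's first base from the base before the start as -1. Windows of 250 bases before to 50 after the start were given for 7 of the 10 genes, and 5 of them (Ccn1, Ankrd1, Yap1, Wwtr1 and Lats2, the last at 1 of its starts) held the letters on either strand, as did 16.6% of 27025 genes with such windows. Windows for Ccn2, Stk3 and Tead1 were not used here, and those of Tead2 and Lats1 held no match. Both the target that was lower and the target that was not thus carried the letters, and a match is a description of the window, not of a bound site.

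Other CCN genes and the genes nearest to Ccn1 were set beside the targets. Ccn4, a matricellular relative first known from the Wnt pathway, fell to 5.50 and 5.73 FPKM in the libraries labelled knockdown, against 9.61 and 9.85 FPKM in those labelled scrambled (log2 change -0.70, SE 0.03, adjusted p = 2.9e-04). Ccn3, Ccn5 and Ccn6 were below the filter, at no more than 0.742 FPKM in any library, as were Ankrd2 and Ankrd23, relatives of Ankrd1, at no more than 0.412 FPKM. By Euclidean distance of log2(FPKM + 1) around each gene's mean over the 4 libraries, the nearest to Ccn1 were Col1a1 (distance 0.02) and Col1a2 (distance 0.03), the chains of type I collagen, and Drosha (distance 0.04), the nuclear nuclease of microRNA processing. Col1a1 had 6.28 and 6.45 FPKM in the libraries labelled knockdown, against 20.03 and 20.8 FPKM in those labelled scrambled. With 4 libraries, such nearness says little more than that the group difference is of the same size on log2(FPKM + 1). By mean FPKM, Col1a1 was 3.20-fold lower, Col1a2 2.94-fold and Drosha 3.12-fold, against 2.90-fold for Ccn1.

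Stk3 and Ankrd1 split the libraries in a way that the labels do not give. The library labelled knockdown 1 was close to scrambled 2, and knockdown 2 to scrambled 1: Ankrd1 differed by -2.90% in the first pair and -1.65% in the second, and Stk3 by -2.34% and -0.907%. Replicate 1 minus replicate 2 on log2(FPKM + 1) was -0.23 for Ankrd1 in the libraries labelled knockdown and 0.21 in those labelled scrambled, and -0.22 and 0.20 for Stk3, while for the other 8 genes no such gap was larger than 0.06. The pattern is common in these libraries, since 2281 of the 8750 tested genes (26.1%) had gaps over 0.1 of opposite sign in the groups, and 7 (0.08%) had gaps over 0.1 of the same sign. Sav1, Tead4 and Axl, a receptor kinase of the target list, showed it too. For such genes the difference within batch 1 and that within batch 2 were opposed: -0.25 and 0.18 for Ankrd1, and -0.23 and 0.19 for Stk3. For the other 8 genes the differences within both batches were close, such as -1.28 and -1.25 for Yap1 and 1.06 and 1.08 for Tead2.

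**Figure D3:**
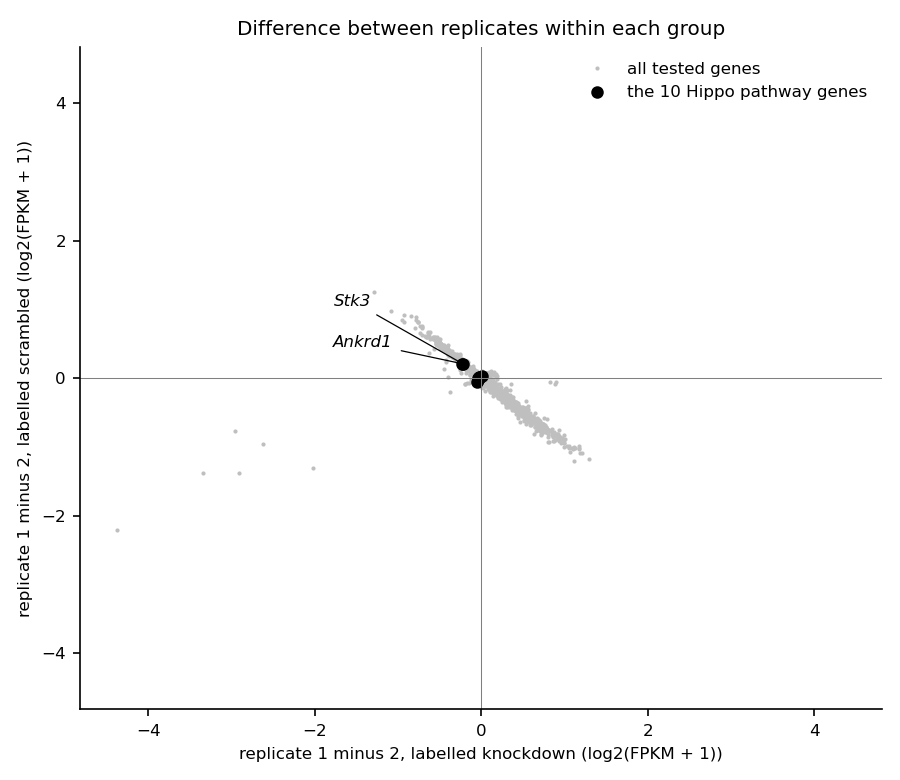
Replicate 1 minus replicate 2 on log2(FPKM + 1), in the libraries labelled knockdown on the x axis and in those labelled scrambled on the y axis, for all 8750 tested genes (grey) and the 10 Hippo pathway genes (black). Most genes lie along a falling diagonal, a few lie apart at the lower left, and on the diagonal Stk3 and Ankrd1 sit at about -0.22 and 0.20, while the other 8 lie within 0.06 of 0 on both axes.

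Counted over the 10 genes, 8 had groups that did not overlap, against 74.5% of all tested genes. Of these, 7 were lower, against 44.4% of tested genes, and 1 was higher, against 30.1%. These counts are those of genes chosen with the contrast in view, and nothing is read from them. Their median log2 difference was -0.64, against -0.02 over all tested genes. In order of level, the libraries labelled knockdown had Tead2, Ankrd1, Ccn1, Ccn2, Wwtr1, Yap1, Lats2, Stk3, Tead1 and Lats1 from high to low, and Ankrd1 and Ccn1 overlapped. Those labelled scrambled had Ccn1, Ankrd1, Ccn2, Tead2, Wwtr1, Yap1, Lats2, Tead1, Stk3 and Lats1, and Stk3 and Lats1 overlapped.

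Transcript length moved with the difference between the groups. Over 8530 tested genes, which are no replicates of one another, longer transcripts (the longest of each gene in GENCODE) had lower log2 changes (Spearman rho -0.39). Tead1, with 9964 bases longer than 99.1% of those genes, had a difference of -0.26 once the trend was taken out, against -0.74 before. Lats1, given above, had 7209 bases. Yap1 kept -0.91, Wwtr1 -0.40 and Tead2 1.25. The shorter targets lay where the trend is near 0, with -1.54 for Ccn1 and -1.04 for Ccn2. Scaling moved all genes together: the median change over all tested genes was -0.02 as deposited, 0.15 after centring each library on its median and -0.21 with each library scaled to the same sum. Under both scalings the 7 lower genes were still lower and Tead2 higher, with Lats1 at -0.23 and -0.60, while Ankrd1 (0.14 and -0.22) and Stk3 (0.16 and -0.17) lay on either side of 0.

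**Figure D4:**
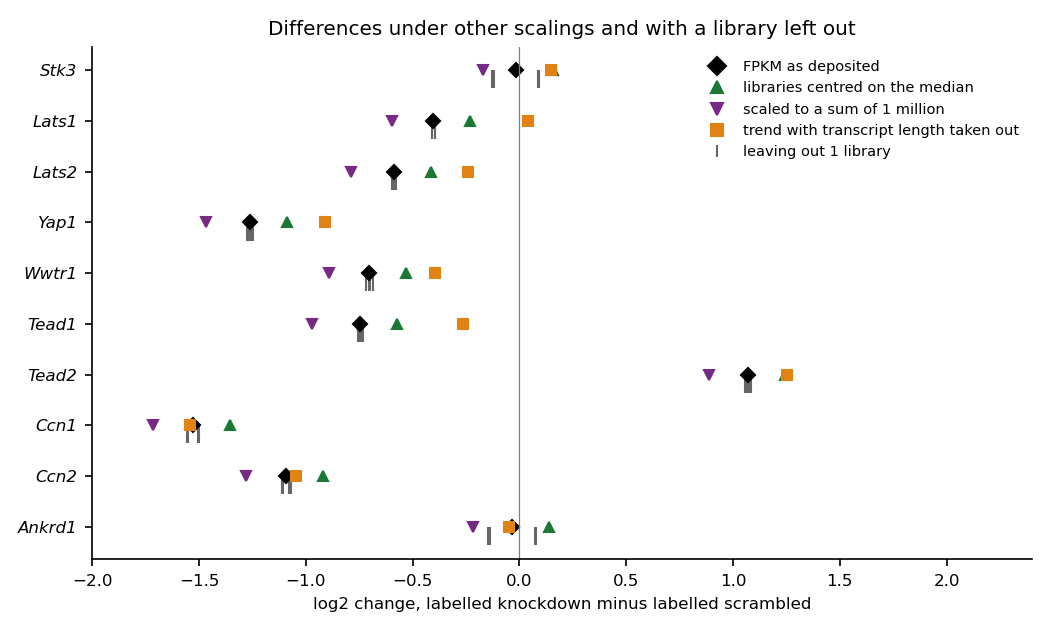
Log2 difference of each of the 10 genes, labelled knockdown minus labelled scrambled, as deposited (black diamonds), under 2 other scalings (triangles), with the trend on transcript length taken out (squares) and with 1 library left out (grey ticks). Ccn1, Ccn2, Yap1 and Tead2 stay on their side of 0 by more than 0.8 throughout, Lats1 reaches 0.04 without the length trend, and Stk3 and Ankrd1 lie on both sides of 0.

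Around these genes, most of the tested genes on lists of regulators, partners, targets and relatives fell in the libraries labelled knockdown. The 8 lists held 93 genes besides the 10, of which 73 were tested, and 50 fell, 10 rose and 13 did not pass, against 41.2% lower and 27.4% higher of all tested genes. Their median log2 change was -0.45. Of the 13 that did not pass, 11 had replicate gaps over 0.1 of opposite sign in the groups. The same held for 2209 of all 2741 tested genes that did not pass, so it is no trait of the lists. With the length trend taken out 38 list genes fell and 15 rose, against 37.2% lower and 31.8% higher of the 8530 genes in that fit. The lists were written with earlier results of these data known, so the counts are no independent evidence of a direction.

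Upstream regulators at the membrane and cell junctions had 14 of 17 tested members lower, 2 higher and 1 (Pals1) not past, with a median of -0.80. Of all tested genes 41.2% were lower and 27.4% higher. With the length trend taken out, 11 regulators fell and 3 rose, against 37.2% lower and 31.8% higher of the genes in that fit. There Tjp1 (0.03, adjusted p = 0.26), Limd1 (0.06, adjusted p = 0.063) and Ptpn14 (0.01, adjusted p = 0.57) no longer passed, and Pals1 passed upward (0.42, adjusted p = 0.034). Limd1 also did not pass on libraries centred by the median (adjusted p = 0.10). Wwc1, known as KIBRA, an activator of LATS, fell to 3.75 and 3.85 FPKM in the libraries labelled knockdown, against 11.8 FPKM in both labelled scrambled (log2 change -1.41, SE 0.02, adjusted p = 1.6e-04). Its relative Wwc2 fell to 8.71 and 8.85 FPKM in the libraries labelled knockdown, against 21.5 and 21.1 FPKM in those labelled scrambled (log2 change -1.19). Rassf2, which binds MST kinases, fell to 0.466 and 0.478 FPKM in the libraries labelled knockdown, against 1.59 and 1.61 FPKM in those labelled scrambled (log2 change -0.82). Nf2, the tumour suppressor merlin that brings LATS to the membrane, had a log2 change of -0.80. The angiomotins, which bind YAP, were lower as well, Amotl1 by -0.88 and Amotl2 by -0.98 on the log2 scale. LIM proteins that inhibit LATS did not move together: Ajuba fell to 18.01 and 18.3 FPKM in the libraries labelled knockdown, against 36.9 and 36.4 FPKM in those labelled scrambled, whereas Wtip rose to 60.2 and 58.1 FPKM in the libraries labelled knockdown, against 26.1 and 25.2 FPKM in those labelled scrambled (log2 change 1.18, SE 0.03, adjusted p = 1.7e-04). The remaining riser was the hyaluronan receptor Cd44 (log2 change 0.48), which is also on the stromal marker list. Rassf1 passed at -0.13 (adjusted p = 0.0092), but its call ended when batch entered as a block (adjusted p = 0.077) and when scrambled 1 (adjusted p = 0.10) or scrambled 2 (adjusted p = 0.089) was left out, and its change was 0.04 after median-centring.

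Kinases that act beside MST on LATS had 7 of 10 tested members lower, 2 higher and 1 not past. The shares of all tested genes were 41.2% lower and 27.4% higher. With the length trend taken out, 4 kinases were lower and 4 higher, against 37.2% lower and 31.8% higher of the genes in that fit. The gene not past was Map4k2, which passed downward with libraries scaled to the same sum (-0.20, adjusted p = 0.042) and upward without the length trend (0.29, adjusted p = 0.032). Map4k5 fell to 3.62 and 3.66 FPKM in the libraries labelled knockdown, against 9.02 and 8.71 FPKM in those labelled scrambled (log2 change -1.09, SE 0.02, adjusted p = 1.6e-04). Map4k4 fell to 6.78 and 6.91 FPKM in the libraries labelled knockdown, against 14.8 and 14.7 FPKM in those labelled scrambled, and Mink1 to 3.20 and 3.29 FPKM in the libraries labelled knockdown, against 5.78 FPKM in both labelled scrambled. The 2 that rose were Map4k1 (log2 change 0.43) and Stk25 (log2 change 0.29), of which Stk25 did not pass with libraries scaled to the same sum (adjusted p = 0.17). Map4k3 passed downward at -0.15, but was at 0.03 after median-centring and passed upward at 0.12 with the length trend taken out. Taok1 and Taok2, which passed downward at -0.45 and -0.35, did not pass without that trend (adjusted p = 0.20 and 0.46).

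STRIPAK is the phosphatase complex that switches MST kinases off. Of 14 tested members 6 fell, 4 rose and 4 (Strn3, Fgfr1op2, Ppp2ca and Ppp2r1a) did not pass, with a median of -0.13. Of all tested genes 41.2% fell and 27.4% rose, so nothing particular to the complex is read from these counts. Ppp2r1a passed downward with libraries scaled to the same sum (-0.43, adjusted p = 0.035). Strn, a striatin scaffold, fell to 1.18 and 1.19 FPKM in the libraries labelled knockdown, against 3.26 and 3.17 FPKM in those labelled scrambled (log2 change -0.95, SE 0.02, adjusted p = 1.6e-04), and Slmap, which links the complex to phosphorylated MST, fell to 1.02 and 1.05 FPKM in the libraries labelled knockdown, against 2.72 and 2.75 FPKM in those labelled scrambled. Cttnbp2nl had a log2 change of -0.74. Mob4 rose to 30.7 and 31.6 FPKM in the libraries labelled knockdown, against 19.7 and 19.6 FPKM in those labelled scrambled (log2 change 0.64, SE 0.02, adjusted p = 2.2e-04), and the striatin Strn4 rose by 0.38. Sike1 and Pdcd10 rose by 0.33 and 0.35, but not with libraries scaled to the same sum (adjusted p = 0.079 and 0.069). The catalytic subunit Ppp2ca had 245 and 322 FPKM in the libraries labelled knockdown, against 326 and 249 FPKM in those labelled scrambled (adjusted p = 0.99), the split of Stk3 and Ankrd1 again.

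The next list held genes that keep YAP and TAZ in the cytoplasm or mark them for degradation. It also held Ptpn11, Yes1 and Nlk, whose proteins bind or phosphorylate YAP. Of all tested genes 41.2% fell and 27.4% rose. In this list 11 of 13 tested members were lower, 0 higher and 2 (Yes1 and Nlk) not past as deposited, with a median of -0.58. Yes1, a kinase that phosphorylates YAP, passed upward after median-centring (0.29, adjusted p = 0.016) and with the length trend taken out (0.42, adjusted p = 0.0047). All 6 Ywha genes, whose proteins bind phosphorylated YAP, were among the 11, though Ywhah not after median-centring (adjusted p = 0.10). Ywhaz fell to 55.6 and 56.6 FPKM in the libraries labelled knockdown, against 116 and 115 FPKM in those labelled scrambled (log2 change -1.03, SE 0.02, adjusted p = 1.6e-04), and Ywhab to 74.0 and 75.7 FPKM in the libraries labelled knockdown, against 143 FPKM in both labelled scrambled. Ptpn11, a phosphatase that binds YAP, fell to 24.4 and 25.1 FPKM in the libraries labelled knockdown, against 49.2 and 49.7 FPKM in those labelled scrambled. Btrc, the ubiquitin ligase subunit that recognises phosphorylated YAP, fell to 1.04 and 1.05 FPKM in the libraries labelled knockdown, against 2.12 and 2.06 FPKM in those labelled scrambled. Csnk1e and Fbxw11 passed as deposited and not after median-centring (adjusted p = 0.25 and 0.053), nor Fbxw11 without the length trend (adjusted p = 0.057).

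The target signature, known from human cells, had 9 of 12 tested members besides the 10 genes lower, 2 higher and 1 not past, with a median of -0.49. Of all tested genes 41.2% were lower and 27.4% higher. Asap1, a regulator of the small GTPase Arf, fell to 2.36 and 2.41 FPKM in the libraries labelled knockdown, against 8.98 and 9.05 FPKM in those labelled scrambled (log2 change -1.57, SE 0.02, adjusted p = 1.6e-04). Amotl2, also a feedback inhibitor of YAP, fell to 20.6 and 21.0 FPKM in the libraries labelled knockdown, against 42.2 and 41.7 FPKM in those labelled scrambled, and Crim1 to 0.539 and 0.546 FPKM in the libraries labelled knockdown, against 1.56 and 1.53 FPKM in those labelled scrambled. The 2 that rose were Nuak2, a kinase, at 5.09 and 5.18 FPKM in the libraries labelled knockdown, against 3.04 and 3.01 FPKM in those labelled scrambled (log2 change 0.61, SE 0.02, adjusted p = 1.7e-04), and Gadd45a, of the stress response, at 66.4 and 67.2 FPKM in the libraries labelled knockdown, against 46.8 and 46.3 FPKM in those labelled scrambled (log2 change 0.51). With the length trend taken out 6 of the signature fell and 3 rose, against 37.2% lower and 31.8% higher of the genes in that fit. Axl had 16.8 and 12.3 FPKM in the libraries labelled knockdown, against 12.2 and 16.6 FPKM in those labelled scrambled, and did not pass. Arhgef17 passed downward at -0.38 and upward at 0.10 with the length trend taken out, and Ptpn14 and Ccdc80 did not pass then (adjusted p = 0.57 and 0.46). Median-centring likewise ended the call of Ccdc80 (adjusted p = 0.24).

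**Figure D5:**
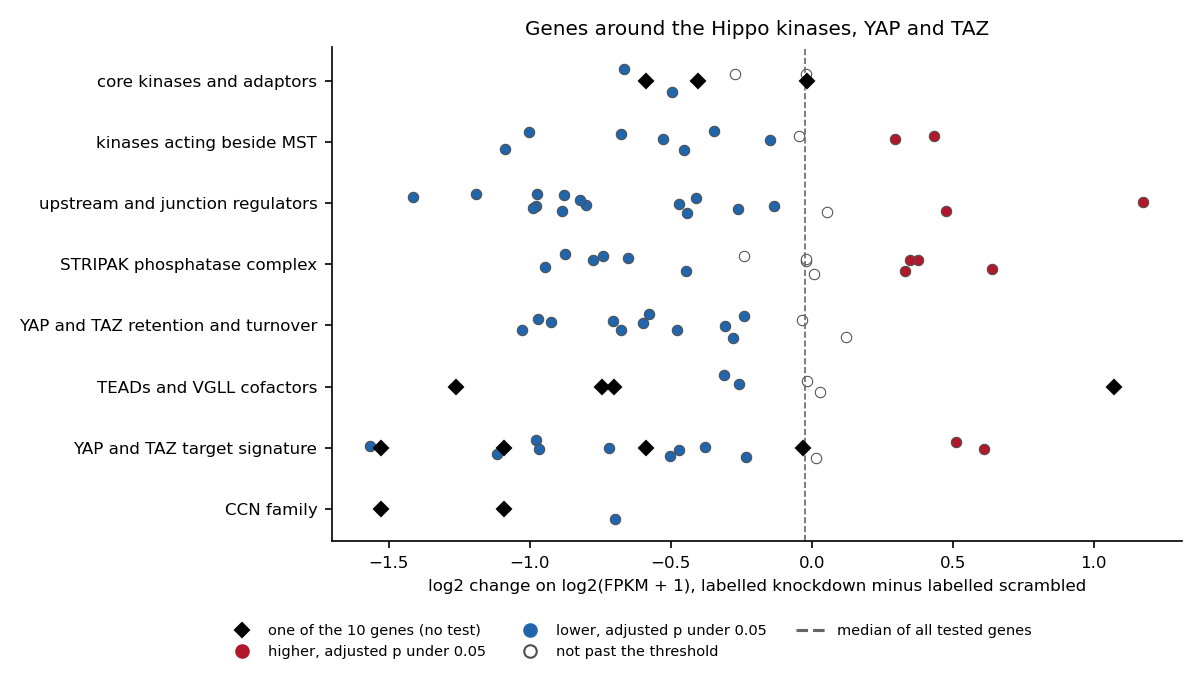
Log2 change on log2(FPKM + 1), labelled knockdown minus labelled scrambled, of each tested gene by list. Filled circles passed the limma test (adjusted p under 0.05; red higher, blue lower), open circles did not, black diamonds are the 10 genes, shown without a test, and the dashed line is the median of all tested genes at -0.02. Most circles lie left of the line, and Tead2 is the black diamond far to its right at 1.07.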

How the data were processed

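RNA from polysomes of 4 libraries was analysed, 2 labelled IFIT1 knockdown and 2 labelled Scrambled. The values are FPKM computed by the authors, per the labels, in 1 table of 18200 genes, and 0 value columns were left out. The submitters' processing notes name GRCm38, mm10 and GRCm39 without roles. Not given in the sources used here are aligner, counter, annotation and strandedness. The members and lists were chosen with earlier results of these data known.

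The groups were compared on log2(FPKM + 1) by limma 3.58.1 under R 4.3.3, whose moderated variances followed a trend on mean level. The test covered the 8750 genes that averaged 1 FPKM or more, was two-sided, and was adjusted by Benjamini-Hochberg over those genes, with a threshold of 0.05. Whole fragments behind the FPKM were recovered for 99.4% of tested genes as the smallest whole numbers that fit all libraries, so true numbers can be a multiple. They give depth and counting error only, since PCR copies are not independent molecules. Both steps were run on simulated data whose fragment numbers scattered by sampling alone. Such data lack the opposed replicate gaps of these libraries, so they do not check the p-values given here. Fitted standard errors had a median of 0.0208 over tested genes, less than the 0.0382 that counting alone gives, so a p-value can leave out part of the counting error.

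Replicate numbers pair the libraries by the labels' shared batch. The differences between replicates 1 and 2 in the groups had a Pearson's r of -0.83 across 8750 genes. The reported fit has no batch term, and the fit with that block is an alternative. Transcript lengths came from GENCODE M21 by Entrez ID, and promoters from RefSeq. Genes were named by a rule: the 10 genes, Ifit1, close paralogs, the 3 tested genes of smallest p in each list and the 3 nearest to Ccn1. Further list genes are named where they make up a count of 5 or fewer, lose or turn a call, or were chosen after their values were seen (Nf2, Amotl1, Ajuba, Btrc, Sav1, Axl, Ppp2ca, Strn4, Mob4). Tables were made with pandas 2.3.3 and numpy 2.4.6 under Python 3.11.15, and figures with matplotlib 3.10.9.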

Additional observations from a re-analysis of the deposited data

How the results depend on the processing

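The 10 genes kept 8 with groups that do not overlap under median-centring and scaling to a common sum, while a pseudocount cannot change the order of libraries. As deposited, 74.5% of all tested genes did not overlap, and their share under the other settings was not computed. With 1 library left out the count was 8 to 10, 10 being without knockdown 2 or without scrambled 2. A group of 1 library overlaps less easily, so nothing is read from that rise. With the length trend taken out, the log2 change of Lats1 turned to 0.0402 and that of Vgll3 to 0.13, and the cause was not tested. Among all 8750 tested genes, 6009 passed as deposited, 5873 after median-centring and 5883 with libraries scaled to the same sum. Without the length trend 5887 of 8530 did. Over the lists, 60 of 73 genes passed, and 53 to 60 did with another pseudocount, another scaling or the length trend taken out. Leaving out 1 library gave 58 to 59, and 5641 to 5743 of 8750 genes against 6009. With batch as a replicate block, 58 list genes and 5622 of all tested genes passed, and Vgll3 and Rassf1 were the list genes whose call it changed. With the crossed pairing (replicate 1 of one group with replicate 2 of the other), chosen after the data were seen, 66 and 7244 passed. With the counting error as the least standard error, also added after the data were seen, 58 list genes passed, without Map4k3 and Ccdc80. That setting left 5729 of all 8750 tested genes. Without the filter 8498 of 18200 genes passed.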

Other observations

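The pathway column of the deposited table places 104 further genes in Hippo signalling that are in none of the lists above. Of the 54 tested, 29 fell, 9 rose and 16 did not pass in the libraries labelled knockdown (limma, Benjamini-Hochberg over all tested genes), with a median log2 change of -0.30 against -0.02 over all tested genes, of which 41.2% fell and 27.4% rose. With the length trend taken out 26 fell and 17 rose, against 37.2% lower and 31.8% higher of the 8530 genes in that fit. The genes named here were chosen after their values were seen. Smad3, through which TGF-beta signals, fell to 2.84 and 2.91 FPKM in the libraries labelled knockdown, against 9.18 and 9.16 FPKM in those labelled scrambled (log2 change -1.39, SE 0.02). Genes of cell polarity differed in direction: the kinase gene Prkci fell to 9.90 and 10.1 FPKM in the libraries labelled knockdown, against 28.1 and 27.7 FPKM in those labelled scrambled, while its partner Pard6a rose to 39.3 and 38.9 FPKM in the libraries labelled knockdown, against 20.3 and 19.8 FPKM in those labelled scrambled. Myc, a growth regulator, fell to 27.0 and 27.6 FPKM in the libraries labelled knockdown, against 55.2 and 55.5 FPKM in those labelled scrambled. All 3 D-type cyclins rose as deposited. Ccnd1 rose to 83.4 and 86.3 FPKM in the libraries labelled knockdown, against 55.9 FPKM in both labelled scrambled (log2 change 0.59, SE 0.02). Ccnd2 rose by 0.39 and Ccnd3 by 0.30 on the log2 scale. Their calls under other scalings are not given here. Among list genes, the rises of Stk25 (0.29), Sike1 (0.33) and Pdcd10 (0.35) did not pass with libraries scaled to the same sum.

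Birc5, often used as a further readout of YAP, had 61.5 and 53.3 FPKM in the libraries labelled knockdown, against 61.3 and 72.1 FPKM in those labelled scrambled, and did not pass (log2 change -0.21, SE 0.13, adjusted p = 0.25).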
